A study of Mus musculus with 7 samples.

Results

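Here 10 genes were taken by name from the deposited gene-level table, because imprinting is known at each of their loci, and all 10 were found: Peg3, Dlk1, Mest, Cdkn1c, Grb10, Plagl1, Zim1, Ndn, Snrpn and Gnas. They stood among 21304 protein-coding genes with a value in every tissue, of which 14898 reached 1 FPKM (a level of fragments scaled for transcript length and library size) in at least 1 tissue. The study sequenced rRNA-depleted total RNA of 3 fat depots, visceral (VAT), subcutaneous (SCAT) and brown (BAT), and of liver, kidney, skeletal muscle and cortex. All mice were wild-type (wt) C57BL/6 animals (C57BL/6N in the text of the study) of 36 weeks on the diet that the labels call NCD, and no group was treated or altered. Each tissue had 1 library and there were no replicates, so no test was possible, no value has an error, and the order of neighbouring tissues cannot be set against a spread.

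An imprinted gene is read mainly from the copy inherited from a single parent, because the other copy carries DNA methylation or other silencing marks set in the germ line. Many imprinted genes act on growth before and after birth, on adipose tissue and on the brain. The mice were of an inbred strain and the table gives 1 level per gene, so these values say nothing about which parental copy was read. Mest, Peg3, Plagl1, Dlk1, Ndn and Snrpn are known as paternally expressed, Cdkn1c and Zim1 as maternally expressed, Grb10 as maternally expressed outside the brain, and the Gnas locus makes transcripts of several kinds of parental origin.

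Promoters of 4 genes are shown because these genes form the pairs that the values below turn on: Peg3 and its neighbour Zim1, both high in white adipose tissue, and Ndn and Snrpn, both highest in cortex. Each stretch is the 300-base RefSeq window (GRCm38.p6) from 250 bases before to 50 bases after the transcript start, 5′ to 3′ on the gene's strand, and the capitals mark CG, the dinucleotide at which DNA is methylated. The windows are chr7:6730370-6730669 (minus strand) for Peg3, chr7:6696383-6696682 (minus) for Zim1, chr7:62348027-62348326 (plus) for Ndn and chr7:60005150-60005449 (minus) for Snrpn, which shares this start with Snurf.
Peg3: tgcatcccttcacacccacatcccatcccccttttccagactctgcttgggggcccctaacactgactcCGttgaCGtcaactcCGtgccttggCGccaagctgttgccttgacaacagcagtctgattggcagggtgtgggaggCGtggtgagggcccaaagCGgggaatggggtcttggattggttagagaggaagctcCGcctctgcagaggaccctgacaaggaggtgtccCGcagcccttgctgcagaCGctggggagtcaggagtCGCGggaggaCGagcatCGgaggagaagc
Zim1: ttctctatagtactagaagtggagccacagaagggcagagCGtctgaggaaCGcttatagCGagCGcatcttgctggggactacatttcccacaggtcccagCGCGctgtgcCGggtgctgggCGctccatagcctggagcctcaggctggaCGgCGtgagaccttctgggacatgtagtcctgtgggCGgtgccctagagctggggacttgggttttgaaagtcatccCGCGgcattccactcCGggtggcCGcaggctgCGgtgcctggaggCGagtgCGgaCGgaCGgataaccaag
Ndn: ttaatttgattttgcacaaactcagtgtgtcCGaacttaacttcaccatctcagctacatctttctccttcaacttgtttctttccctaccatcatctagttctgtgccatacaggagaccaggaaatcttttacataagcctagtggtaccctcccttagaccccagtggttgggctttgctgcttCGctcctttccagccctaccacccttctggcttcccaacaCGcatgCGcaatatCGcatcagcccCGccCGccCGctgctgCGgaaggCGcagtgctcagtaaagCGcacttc
Snrpn: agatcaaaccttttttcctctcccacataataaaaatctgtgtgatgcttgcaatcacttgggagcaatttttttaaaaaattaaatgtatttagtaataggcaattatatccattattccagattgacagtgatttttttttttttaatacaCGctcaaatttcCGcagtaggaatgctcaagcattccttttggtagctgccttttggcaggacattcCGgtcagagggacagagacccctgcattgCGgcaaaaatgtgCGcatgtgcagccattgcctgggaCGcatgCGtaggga
The Peg3 window held 13 CG, the Zim1 window 20, the Ndn window 11 and the Snrpn window 7, where the median of all 32851 promoters of the same length was 7. The table had 18 windows for 9 of the 10 genes, with a median of 14.5 CG. At least 7 CG were held by 15 of the 18, where 47.9% of all promoters held fewer than 7. Windows of the same gene are not separate cases, since some of Gnas and of Mest overlap almost wholly. Scaled for base composition, the median ratio of observed to expected CG was 0.598 in these 18 windows and 0.384 in all promoters. The highest counts were 45 CG at a Grb10 start and 40 at a Gnas start. The lowest was 2 at the most distant of 4 Snrpn starts, which is shared with Snhg14. Peg3 was the only gene among them whose window held GGGGCCCC, a sequence that the Plagl1 protein is known to bind, at base 50 of the stretch above. The same window held TGACGTCA, the full cAMP response element, at base 73. Both motifs read the same on either strand and do not overlap, and they occurred in 1.08% and 1.79% of all promoters.

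On the map, 5 of the 10 genes lie on chromosome 7, which carried 9.25% of the protein-coding genes tested. Zim1 (chr7:6671269-6696450) and Peg3 (chr7:6703892-6730431) are separated by 7.44 kb and are both annotated on the minus strand. Snrpn (chr7:59982495-60140219, minus strand) and Ndn (chr7:62346569-62350262, plus strand) belong to the imprinted cluster whose human counterpart is lost in Prader-Willi syndrome, and lie 2.21 Mb apart. Cdkn1c (chr7:143458339-143461050, minus strand) lies at the distal end of the chromosome. The others are Mest (chr6:30723547-30748465, plus), Grb10 (chr11:11930508-12038683, minus), Plagl1 (chr10:13060504-13131694, plus), Dlk1 (chr12:109452823-109463336, plus) and Gnas (chr2:174284320-174346744, plus), all in GRCm38 coordinates.

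The genes are described by the tissue of their highest level. VAT held the highest level of 4 genes (Peg3, Mest, Grb10 and Plagl1), where 5.31% of the genes with at least 1 FPKM were highest in VAT. BAT was highest for 3 (Dlk1, Cdkn1c and Gnas) against 15.1% of genes, cortex for 2 (Ndn and Snrpn) against 21.1%, and SCAT for Zim1 against 8.37%. No member was highest in liver, kidney or muscle, where 15.5%, 10.6% and 24% of genes were. Liver was the lowest tissue of 6 of the 10 (Peg3, Dlk1, Cdkn1c, Grb10, Zim1 and Ndn), against 15.8% of all genes with at least 1 FPKM. These shares are over genes with at least 1 FPKM, and Dlk1 is the member below that level, so 2 of the 9 others were highest in BAT and 5 of the 9 lowest in liver. The count for liver was chosen after the values were seen.

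**Figure D1:**
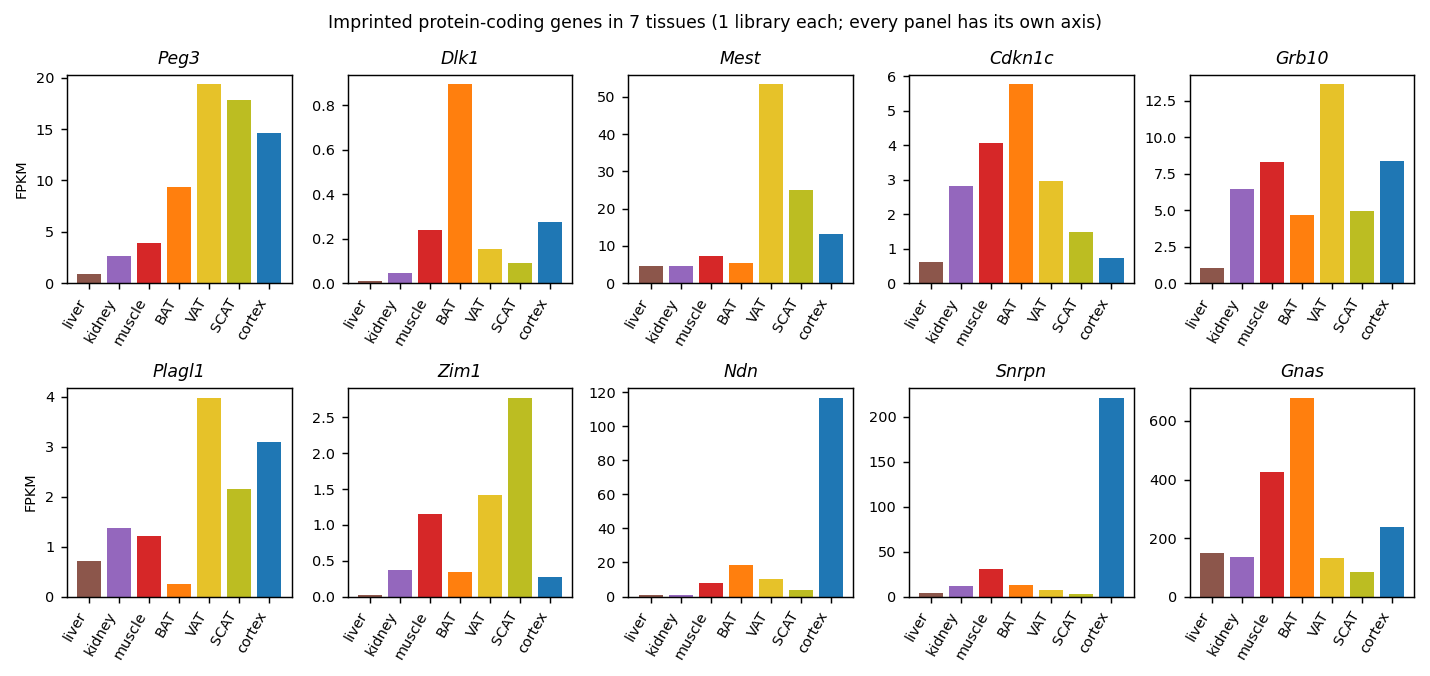
FPKM of the 10 imprinted genes in each of the 7 tissues, 1 bar per library and a separate linear axis from 0 for each gene. Mest peaked at 53.3 FPKM in VAT, Gnas at 679 in BAT and Snrpn at 221 in cortex, and the liver bar was the lowest for 6 of the genes.

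Of the genes highest in a white depot, Peg3 encodes a large zinc finger protein. Its level was 19.3 FPKM in VAT, 17.8 in SCAT, 14.6 in cortex, 9.33 in BAT, 3.96 in muscle, 2.67 in kidney and 0.886 in liver. VAT was thus 21.8-fold above liver but 1.08-fold above SCAT, so white fat and cortex stood together at the top. Zim1 encodes a zinc finger protein too, and reached 2.77 FPKM in SCAT, 1.42 in VAT, 1.15 in muscle, 0.372 in kidney, 0.344 in BAT, 0.269 in cortex and 0.0211 in liver. Zim1 resembled Peg3 in being high in white fat and lowest in liver, but at this locus it lacked the high cortex level. Where the order of loci is read as strand, this Zim1 locus is opposite to the annotated gene. The Zim1 locus on the annotated strand stayed under 1 FPKM, at 0.895 in SCAT, 0.532 in VAT, 0.395 in muscle and 0.367 in cortex. The contrast with Peg3 in cortex therefore depends on the locus read.

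Mest, an enzyme-like protein of the hydrolase fold known to rise in expanding fat, was highest in both white depots. It was at 53.3 FPKM in VAT, 24.9 in SCAT, 13.1 in cortex, 7.31 in muscle, 5.44 in BAT, 4.67 in liver and 4.58 in kidney. The level in VAT was 9.79-fold that in BAT, and BAT stood near liver and kidney rather than near the white depots. Copg2, a coat protein gene that overlaps the end of Mest by 0.912 kb on the opposite strand, was also highest in VAT (49.3 FPKM) and next in SCAT (26.4). The Mest level divided by the Copg2 level ran from 0.301 in liver to 1.08 in VAT. The table lists both genes with the same bounds, a span of 173 kb that covers both, so whether fragments of Copg2 entered the Mest level was not tested.

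Plagl1 encodes a zinc finger protein that binds the motif described above. It measured 3.98 FPKM in VAT, 3.10 in cortex, 2.14 in SCAT, 1.37 in kidney, 1.21 in muscle, 0.706 in liver and 0.259 in BAT. It was the only member lowest in BAT, 15.3-fold below VAT. Grb10, an adaptor that binds the insulin and IGF1 receptors and dampens their signal, measured 13.6 FPKM in VAT, 8.34 in cortex, 8.33 in muscle, 6.42 in kidney, 4.97 in SCAT, 4.64 in BAT and 1.06 in liver. Apart from liver its tissues lay closer together, and its gap from the top to the next tissue was 1.63-fold.

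Cell type markers were set against the tissue labels. Apoa1, Fgb and Tat of the 4 hepatocyte markers were enriched in liver, where Alb lacked a value, and all 4 kidney tubule markers in kidney. Mylpf of the 4 muscle fibre markers was enriched in muscle. Acta1 had no locus under its name, and Ckm and Myh4 lacked a value in at least 1 tissue. Ucp1 and Cidea of the 3 brown adipocyte markers were enriched in BAT. Elovl3 was highest there at 164.6 FPKM but not enriched, with 65.6 in liver. Plin1 of the 4 adipocyte markers was enriched in BAT. The 4 adipocyte markers summed to 1419 FPKM in BAT, 1071 in VAT and 415 in SCAT, with at most 49.9 elsewhere. The 5 fibroblast markers summed to 201 FPKM in muscle, 126 in SCAT, 113 in VAT and 70.6 in BAT, with 5.83 in cortex, 12.0 in kidney and 18.96 in liver, and the 3 mural cell markers had their highest sum, 158, in VAT, of which Acta2 gave 126. None of these fibroblast or mural cell markers was enriched in a tissue.

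The VAT library stood out for markers of other tissues. All 3 epididymis markers were enriched there, with a summed level of 2639 FPKM in VAT and at most 1.99 elsewhere. The liver protein gene Alb stood at 253 FPKM in VAT, and 2 of the 3 mesothelium markers (Upk3b and Krt19) were enriched in VAT. In SCAT, 4 of 4 lymphocyte markers summed to 107 FPKM (at most 3.25 elsewhere) and 4 pancreatic acinar markers to 91.8 (at most 8.77 elsewhere), with 3 of the 4 enriched. In BAT, Ckm of muscle fibres reached 166 FPKM against 8592 in muscle. The part of these cells in the members' levels was not tested, and in whole tissue fewer cells of a type and less RNA per cell cannot be told apart. With VAT set aside, Peg3 (17.8 FPKM) and Mest (24.9) were highest in SCAT, while Grb10 (8.34) and Plagl1 (3.10) were highest in cortex.

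Of the genes highest in BAT, Gnas was the most abundant member in every tissue. It encodes the stimulatory G protein subunit that couples hormone receptors, beta-adrenergic receptors among them, to adenylyl cyclase. Its level was 679 FPKM in BAT, 425 in muscle, 239 in cortex, 150.3 in liver, 136 in kidney, 133 in VAT and 83.9 in SCAT. BAT exceeded VAT 5.10-fold and SCAT 8.10-fold. After each library was rescaled by its median ratio over commonly expressed genes the ratios were 3.11 and 4.62, and VAT then lay above liver and kidney, with SCAT still the lowest. Gnas made up 92.2% of the summed FPKM of the 10 members in BAT and 38.7% in cortex, where Snrpn and Ndn were high.

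Cdkn1c encodes p57Kip2, an inhibitor of cyclin-dependent kinases that holds cells out of the cycle. It measured 5.76 FPKM in BAT, 4.05 in muscle, 2.96 in VAT, 2.82 in kidney, 1.48 in SCAT, 0.724 in cortex and 0.625 in liver. Dlk1, a membrane protein with EGF-like repeats that restrains adipocyte differentiation, did not reach 1 FPKM in any tissue. Its values were 0.892 FPKM in BAT, 0.274 in cortex, 0.237 in muscle, 0.156 in VAT, 0.0896 in SCAT, 0.0447 in kidney and 0.0107 in liver. These levels are so low that the order among them carries little weight, and Dlk1 is counted among the members that did not meet any rule with a minimum of 1 FPKM.

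Ndn and Snrpn were highest in cortex. Ndn encodes necdin, a MAGE family protein of postmitotic neurons. It measured 116.9 FPKM in cortex, 18.7 in BAT, 10.1 in VAT, 8.12 in muscle, 3.62 in SCAT, 1.08 in kidney and 0.824 in liver. Snrpn encodes SmN, a core protein of the spliceosome that is typical of neurons, and its locus also carried the names Snurf and Gm38393. It measured 221 FPKM in cortex, 30.6 in muscle, 12.3 in BAT, 12.0 in kidney, 7.18 in VAT, 4.16 in liver and 2.34 in SCAT. All 5 neuron markers were enriched in cortex, with a summed level of 519 FPKM there and at most 1.21 elsewhere, so the levels of Ndn and Snrpn outside cortex came with very low neuron markers. The tissue that came next differed between them: BAT for Ndn and muscle for Snrpn.

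A gene was called enriched when it had at least 1 FPKM in a tissue and its log2(FPKM + 0.1) there was at least 2, or 4-fold, above each of the other 6 tissues. The rule was met by 2 members, both in cortex: Ndn by 2.64 over BAT and Snrpn by 2.85 over muscle, on the log2 scale. Of all genes with at least 1 FPKM, 21.3% met it in some tissue and 8.22% in cortex, and of all protein-coding genes 14.9% met it. The count of 2 of 10 therefore lay near the background. Where the table's order of loci is read as strand, the Ndn level comes from a locus opposite in strand to the annotated Ndn, and without such loci Snrpn alone was enriched.

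**Figure D2:**
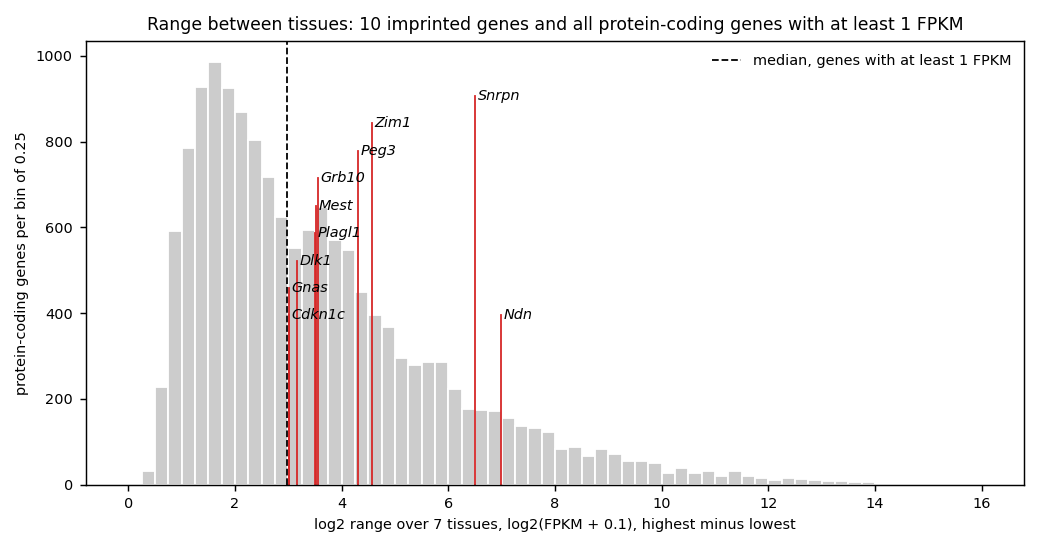
Log2 range over the 7 tissues (log2(FPKM + 0.1), highest minus lowest tissue) for the 14898 protein-coding genes with at least 1 FPKM, as grey bars of genes per bin of 0.25, with the 10 imprinted genes as red lines whose heights serve only to part the labels. The members lie between 3.01 (Cdkn1c) and 6.98 (Ndn), and the dashed line is the median of the bars, 2.99.

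The ratio of the highest to the lowest tissue ran from 8.10 for Gnas to 142 for Ndn. The log2 range, highest minus lowest tissue, had a median of 3.54 over the 10 genes, from 3.01 for Cdkn1c to 6.98 for Ndn. The median was 2.19 over all protein-coding genes and 2.99 over those with at least 1 FPKM, and the members lay above the latter, Cdkn1c and Gnas (3.02) by little and Dlk1 (3.16) with no level of 1 FPKM. After rescaling, Gnas (2.21) and Cdkn1c (2.80) lay below the median of 2.91. The highest-to-lowest ratio then ran from 4.62 for Gnas to 199.8 for Zim1, with 173 for Ndn. With a pseudocount of 1 the ranges of 7 members lay above the median of 2.03. With annotated-strand loci alone, all members but Ndn lay above the median of 2.87. By tau, an index from 0 for even to 1 for confined expression, 3 members lay below the median of genes with at least 1 FPKM (0.412), namely Gnas (0.213), Grb10 (0.334) and Peg3 (0.361). The gap between the highest and the next tissue had a median log2 ratio of 0.81 for the members and 0.68 for genes with at least 1 FPKM. It was smallest for Peg3 (0.12) and largest for Snrpn (2.85).

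Set against liver, 7 members were at least 4-fold higher in VAT (Peg3, Mest, Cdkn1c, Grb10, Plagl1, Zim1 and Ndn), where 11.2% of all genes with at least 1 FPKM in either tissue were. A further comparison found 4 members at least 4-fold higher in cortex than in liver (Peg3, Grb10, Ndn and Snrpn) against 19.9% of genes. The 7 of VAT also passed after this rescaling by the median ratio, beside 15.2% of genes. With annotated-strand loci alone the count for VAT was 4 (Peg3, Mest, Cdkn1c and Grb10) beside 9.8% of genes, and with a pseudocount of 1 it was 4 (Peg3, Mest, Grb10 and Ndn) beside 5.05%. A 4-fold excess over liver was found for 6 members in muscle (15.1% of genes), 5 in BAT (11%), 5 in SCAT (10.4%) and 2 in kidney (10.2%). After rescaling the counts were 4 in muscle (12.5% of genes), 3 in BAT (9.29%), 6 in SCAT (15%), 2 in kidney (10.4%) and, with Plagl1 added, 5 in cortex (22.2%). With a pseudocount of 1 they were 3 in muscle (10.2%), 4 in BAT (6.22%) and 2 in SCAT (4.49%). Kidney then had none (5.63%) and cortex 4 (12.6%). With annotated-strand loci they were 4 in muscle (14%), 4 in BAT (10.2%) and 3 in SCAT (9.24%), with 2 in kidney (9.38%) and 3 in cortex (18%). No member was 4-fold higher in liver than in any other tissue, where 8.17% of genes were higher in liver than in kidney, 18.1% than in cortex, 13.3% than in muscle, 10.9% than in BAT, 13% than in VAT and 16.9% than in SCAT. Between adipose depots, Mest and Plagl1 were at least 4-fold higher in VAT than in BAT (7.14% of genes), and Gnas was at least 4-fold higher in BAT than in VAT (9.81% of genes). Ndn, Snrpn and Gnas were at least 4-fold higher in BAT than in SCAT (15.6% of genes), and Mest, Plagl1 and Zim1 in SCAT than in BAT (6.02% of genes). After rescaling, the log2 difference of Gnas from BAT to VAT was 1.63 instead of 2.35, and those from BAT to SCAT were 1.54 for Ndn instead of 2.34 and 1.56 for Snrpn instead of 2.35, so these 3 no longer reached 4-fold. In the other direction, Grb10 (2.24 instead of 1.53) and Zim1 (2.39 instead of 1.77) joined Mest and Plagl1 as at least 4-fold higher in VAT than in BAT, where 11.2% of genes then were. Gnas remained 4-fold higher in BAT than in SCAT (7.46% of genes), and Mest, Plagl1 and Zim1 in SCAT than in BAT (10.9%). With annotated-strand loci, Mest alone was 4-fold higher in SCAT than in BAT (5.31%), and Snrpn and Gnas in BAT than in SCAT (16%). With a pseudocount of 1, Mest alone was higher in SCAT than in BAT (2.6%) and in VAT than in BAT (3.06%), and Ndn and Gnas in BAT than in SCAT (10.8%). No member differed 4-fold in either direction between VAT and SCAT, where 6.25% of genes were higher in VAT and 3.84% in SCAT. All these comparisons draw on the same 7 libraries, so they are not independent of each other.

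**Figure D3:**
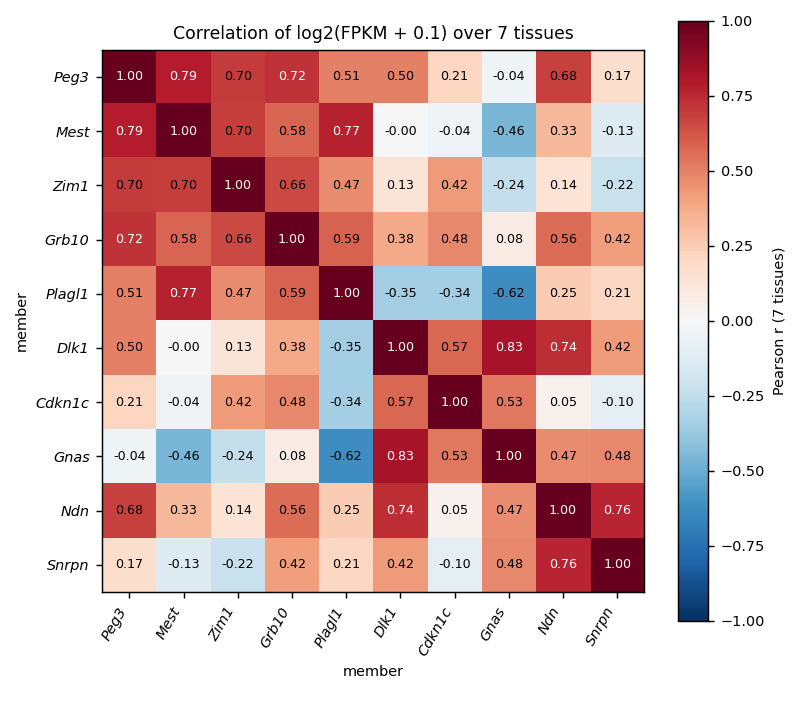
Pearson correlation of log2(FPKM + 0.1) over the 7 tissues for each pair of the 10 imprinted genes, from -1 in blue to 1 in red. Peg3, Mest, Zim1, Grb10 and Plagl1 form a red block (0.47 to 0.79), Gnas and Plagl1 are the most opposed at -0.62, and Ndn and Snrpn reach 0.76.

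The profiles over the 7 tissues can be set side by side as a description. The median Pearson correlation over the 45 pairs of members was 0.42, and 34 pairs were above 0; over all pairs of protein-coding genes with at least 1 FPKM the median was 0.035. All pairs share the same 7 libraries, and the common low level in liver enters most of them. The 5 genes highest in VAT or SCAT correlated with each other at 0.47 to 0.79, highest for Peg3 with Mest. Dlk1 and Gnas gave the highest value, 0.83, on the low levels of Dlk1. Gnas ran against Plagl1 (-0.62) and Mest (-0.46), since those were high in white fat and low in BAT. The neighbours Peg3 and Zim1 gave 0.70, and Ndn and Snrpn 0.76.

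For each member, the other protein-coding gene with the most similar profile was picked by the highest correlation over the 7 tissues, among 10416 genes (10414 for Snrpn) with at least 1 FPKM and a log2 range of at least 2. For Peg3 it was B3galt2, a galactosyltransferase gene, at 0.985, with 54.5 FPKM in SCAT, 48.6 in VAT and 0.0127 in liver. For Gnas it was Prkaca at 0.994, which encodes the catalytic subunit of the cAMP-dependent kinase, with 80.9 FPKM in BAT, 51.3 in muscle and 9.51 in SCAT. For Ndn it was Myrip at 0.994 (17.1 FPKM in cortex and 2.65 in BAT) and for Snrpn Zfp786 at 0.997 (1.53 FPKM in cortex). For Grb10 it was Boc at 0.984, for Mest Allc at 0.966, for Dlk1 Arntl2 at 0.963, for Cdkn1c Pdzd7 at 0.962, for Zim1 Btg2 at 0.948 and for Plagl1 Il33 at 0.922. With 7 points and so many genes, high values are easily met: 47 genes reached 0.95 with Snrpn, 26 with Gnas, 21 with Ndn, at most 6 with each other member and none with Plagl1 or Zim1.

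Listed paralogs and partners were set beside the members. Snrpb, which encodes the SmB proteins that SmN replaces in neurons, ranged only from 23.0 FPKM in cortex to 71.1 in muscle. The Snrpn level divided by the Snrpb level was 9.62 in cortex and 0.0984 to 0.430 in the other tissues, so Snrpn exceeded its paralog only in cortex. Grb7 and Grb14, the sister adaptors of Grb10, were highest in liver at 24.8 and 23.5 FPKM, where Grb10 was lowest at 1.06. Grb7 stood at 0.0172 FPKM in muscle, where Grb10 was at 8.33. The insulin receptor gene Insr was highest in liver (23.1 FPKM) and lowest in cortex (3.21), and Igf1r was enriched in kidney (16.4 FPKM) and lowest in liver (0.387).

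Cdkn1b (p27), the paralog of Cdkn1c, varied little, from 6.34 FPKM in VAT to 12.1 in muscle, and exceeded Cdkn1c in all 7 tissues. Cdkn1a (p21) was highest in BAT at 7.67 FPKM, as Cdkn1c was. Of the kinase partners, Cdk4 was highest in liver (112.5 FPKM), Ccnd1 in kidney (9.63) and Cdk2 in SCAT (3.74). Of the adenylyl cyclases that Gnas activates, Adcy3 was enriched in BAT at 73.2 FPKM and next in cortex at 4.29, and Adcy6 was highest in BAT at 13.3. Adcy5 was instead highest in VAT (8.13) and SCAT (6.05). Gnal, the olfactory and striatal relative of Gnas, did not exceed 6.19 FPKM (cortex), and Gnas was at least 38.5 times its level in every tissue.

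Maged1, a MAGE relative of Ndn, was highest in cortex (72.5 FPKM) like Ndn, but VAT followed at 37.4 and muscle was lowest at 5.55. Magel2, 26.7 kb from Ndn, was listed at 0 in 6 tissues and at 0.00176 FPKM in cortex. The table gives Ndn, Magel2 and Mkrn3 the same bounds, a span of 85.5 kb around the 3.69 kb of Ndn, so whether fragments from elsewhere in that span entered the Ndn level was not tested. Dlk2, the paralog of Dlk1, reached 2.31 FPKM in cortex, and the receptor gene Notch1 ranged from 0.935 in cortex to 3.17 in VAT. Plag1 and Plagl2, the relatives of Plagl1, stayed at or below 1.10 and 1.59 FPKM.

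**Figure D4:**
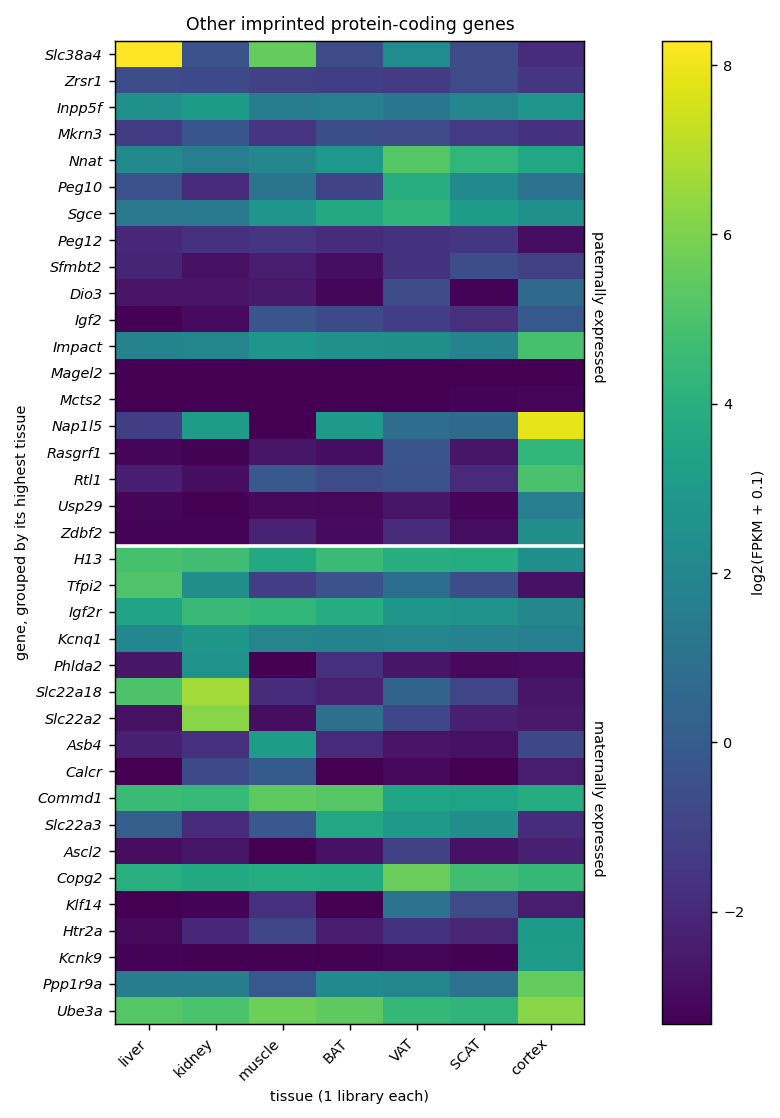
Log2(FPKM + 0.1) of 37 other imprinted protein-coding genes (rows) in the 7 tissues (columns, 1 library each), with paternally expressed genes above the white line and maternally expressed genes below, ordered by highest tissue. The cortex column holds 9 genes at least 4-fold above every other tissue, and the liver column is brightest for Slc38a4 (312 FPKM).

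A wider list of 37 imprinted protein-coding genes, 19 known as paternally and 18 as maternally expressed, gives the members their context. The list does not say in which tissue each gene is imprinted, and imprinting in these tissues was not tested. Of these, 28 reached 1 FPKM and 14 were enriched in a tissue, which is 37.8% of the list beside the 14.9% of all protein-coding genes given above. With annotated-strand loci alone, 9 were enriched, or 24.3% of the list beside 12.9% of all protein-coding genes. Cortex had 9 of the 14, where 5.75% of all protein-coding genes were enriched, liver and kidney 2 each, muscle 1, and no adipose depot any. Of the paternally expressed genes, Nap1l5 (228.5 FPKM), Rtl1 (30.4), Impact (29.5), Rasgrf1 (20.2), Zdbf2 (5.27) and Usp29 (3.05) were enriched in cortex, and the amino acid transporter gene Slc38a4 in liver (312 FPKM, with 45.9 in muscle). Of the maternally expressed genes, Ppp1r9a (45.8 FPKM), Kcnk9 (8.16) and Htr2a (7.99) were enriched in cortex, Slc22a2 (75.5) and Phlda2 (5.88) in kidney, Tfpi2 (34.2) in liver and Asb4 (8.22) in muscle.

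Of the 28 that reached 1 FPKM, cortex held the highest level of 11, kidney of 6, VAT of 5, liver of 3, muscle of 2, BAT of 1 and SCAT of none, beside the shares of all genes with at least 1 FPKM given above for each tissue. Of those highest in VAT, Nnat stood at 37.1 FPKM there and 19.9 in SCAT, Peg10 at 15.1 and 4.46, and Sgce at 19.02 in VAT and 12.9 in BAT. Klf14 (2.02 FPKM) and Copg2 (49.3) were highest in VAT as well. None of these 5 met the 4-fold rule. In all, 9 genes stayed under 1 FPKM in every tissue: Igf2, Magel2, Mkrn3, Peg12, Mcts2, Zrsr1, Sfmbt2, Ascl2 and Calcr. Igf2, the fetal growth factor, reached at most 0.807 FPKM, in cortex.

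Cluster neighbours of the members did not share their profiles throughout. Usp29, whose annotated start lies 0.146 kb from that of Peg3, was at 3.05 FPKM in cortex and at most 0.0638 elsewhere, whereas Peg3 was high in white fat (19.3 FPKM in VAT) as well as in cortex (14.6). Slc22a18 and Phlda2, the neighbours of Cdkn1c, were highest in kidney (102.6 and 5.88 FPKM), where Cdkn1c was at 2.82. Of the imprinted lncRNAs, Meg3, 77.7 kb from Dlk1, was enriched in cortex at 159 FPKM with 4.25 in muscle, and H19 was enriched in muscle at 207 FPKM with 23.6 in BAT. Snhg14, in the Snrpn cluster, ranged from 10.8 FPKM in VAT to 36.5 in muscle, Kcnq1ot1 stayed at or below 0.313 FPKM and Nespas at or below 0.197. Peg3os was not analysed here.

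The table holds the level of many genes on both strands, and this touches 6 of the 10 members. Of the protein-coding genes that reached 1 FPKM at a locus of known strand, 51.9% had a locus on each strand, and in 39.2% of those the opposite strand was the higher. For Peg3, the opposite strand held 0.888 to 1.32 times the level of the annotated strand over the 7 tissues, and for Grb10 0.649 to 0.958 times. For Plagl1 the ratio was 1.41 to 2.47, and for Zim1 it was 0.732 to 3.10 in the 6 tissues with a value on both strands. For Dlk1 it ran from 0.369 to 1.73. Ndn stood apart, with an opposite-strand level 115 to 1364 times that of the annotated strand in the 4 tissues where the latter was above 0. The Plagl1, Zim1 and Ndn levels given here come from the opposite strand by this reading, and Mest, Cdkn1c, Snrpn and Gnas had a single locus each, on the annotated strand.

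**Figure D5:**
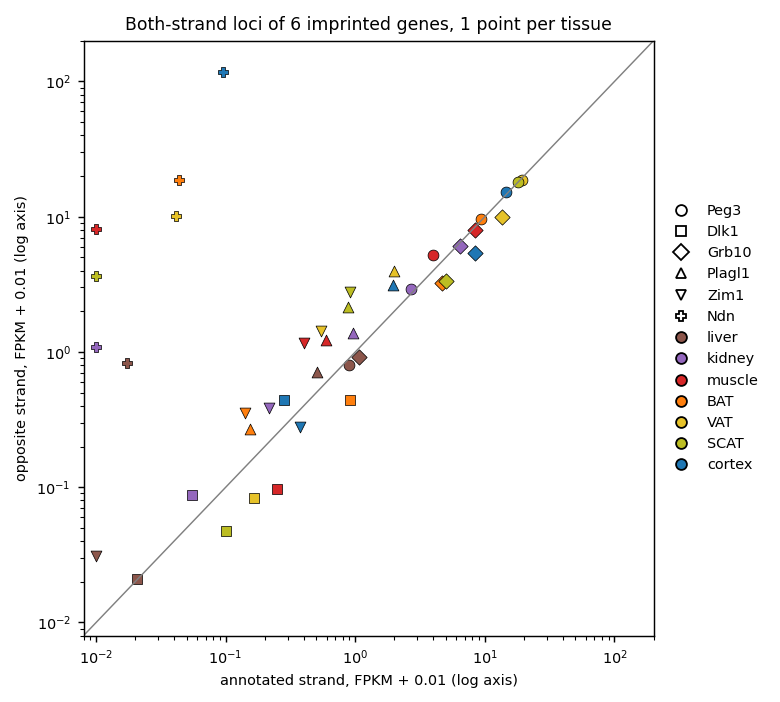
FPKM + 0.01 of the highest locus on the opposite strand against that on the annotated strand, both on log axes, for the 6 members with loci on both strands, with 1 point per tissue (colour) and gene (shape). Peg3, Grb10, Plagl1, Zim1 and Dlk1 lie along the grey line of equal levels, whereas Ndn reaches 116.9 FPKM on the opposite strand with at most 0.0857 on the annotated strand.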

How the data were processed

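Total RNA was isolated with peqGOLD TriFast and depleted of rRNA, and directional paired-end libraries were sequenced on a HiSeq instrument, 1 per tissue. Per the labels and the methods of the study, the authors trimmed reads with flexbar, removed rRNA reads with Bowtie2 (version 2.2.9), aligned to GRCm38 with STAR (2.6.0c), assembled transcripts with Cufflinks (2.2.1) and compared tissues with Cuffdiff; the library type set in Cuffdiff and its scaling between libraries are not given in the sources used here. The deposited table holds FPKM per locus and tissue for 94339 loci in 21 comparisons, and a tissue's FPKM did not vary between comparisons. The authors' log2 fold changes, test statistics (a score), p-values and q-values were not used. No fragment counts were given, so the depth is unknown and no interval was computed.

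Names were split on commas, and 91.9% of the 50354 names were found in GENCODE for GRCm38. Loci with the status FAIL (151) were dropped, and 225 values of 0 with the status LOWDATA were treated as missing. Where a name had several loci, that with the highest FPKM was used. Since a chromosome's loci run upward in separate series, a locus was given the strand of its series. Values were compared as log2(FPKM + 0.1), which understates differences of low genes. A gene was enriched with at least 1 FPKM and a log2 difference of at least 2 over every other tissue. Without replicates no test was run, and counts stand beside the same share of all protein-coding genes. The enrichment rule and the rescaling were tested on simulated data. The members, gene lists and markers were chosen with earlier results of these data known. Named were all members, their listed paralogs and partners, listed imprinted genes that were enriched, under 1 FPKM throughout or in a member's cluster, and the gene most correlated with each member. Nnat, Sgce, Peg10 and Klf14 of the list, and the highest and lowest tissues printed, were picked after their values were seen. Promoters came from RefSeq (GRCm38.p6), which had no entry for Cdkn1c. Alternatives were pseudocounts of 1 and 0.01, a median-ratio rescaling, summed loci, annotated-strand loci alone, FAIL loci kept, LOWDATA zeros as 0, SCAT or VAT left out, a minimum of 5 FPKM, a 2-fold rule, tau, and Spearman correlation. Analyses used Python 3.11.15, pandas 2.3.3 and NumPy 2.4.6.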

Additional observations from a re-analysis of the deposited data

How the results depend on the processing

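With 1 library per tissue, no alternative could be set against replicate error. A count or log2 value was taken as kept when it stayed within 1.5-fold, and a correlation when it stayed within 0.1. The highest tissue of all 10 genes was the same with rescaling, summed loci and annotated-strand loci. On the annotated strand, however, Ndn reached only 0.0857 FPKM in cortex, and Plagl1 was at 1.97 in VAT and 1.95 in cortex. A pseudocount cannot change the highest tissue. Keeping FAIL loci or LOWDATA zeros left the members' median range at 3.54 and median correlation at 0.42. Leaving out SCAT or VAT can move only the genes highest there, so that 9 and 6 genes kept their highest tissue was fixed in advance. The count of members lowest in liver lay between 5 and 7. With annotated-strand loci alone, 1 member and 9 of the 37 other imprinted genes were enriched, instead of 2 and 14. The median log2 range of the members was 2.91 with a pseudocount of 1 and 4.16 with 0.01, instead of 3.54, and the median tau was 0.468 beside 0.412 for all genes with at least 1 FPKM. Of the 210 combinations of a member and a pair of tissues, 72 differed 4-fold with at least 1 FPKM in either tissue. The same held for 14.6% of the combinations of all protein-coding genes, and for 25.3% of those with at least 1 FPKM in either tissue. With a pseudocount of 1 the count was 45 (9.27% of all and 16.1% of those with 1 FPKM). With annotated-strand loci it was 48 (13% and 24.2%). With rescaling the count was 72 too (14.4% and 24.6%), of which 61 were the same combinations. Rescaling moved log2 levels by -0.39 in muscle to 0.52 in SCAT with 0.42 in VAT and -0.29 in BAT, so a difference between tissues moved by up to 0.90, for SCAT against muscle. The log2 ratio of Ndn over its next tissue fell from 2.64 to 0.48 on the annotated strand, that of Dlk1 from 1.41 to 0.57 with a pseudocount of 1, and that of Snrpn rose from 2.85 to 3.44 with rescaling. The causes were not tested. Depth is unknown, so levels near 0, those of Dlk1 and Zim1 in liver among them, have no known precision. No paired analysis was possible because each tissue had a single library and no test was run.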
